A study of Mus musculus with 10 samples.

Results

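The cells described here are epithelial cells from the lower incisor bud at E14.5 (E, embryonic day), chosen by their counts of *Krt15* and *Meis2*, with at least 1 RNA molecule of either. After removal of cells below 700 detected genes or above 20% mitochondrial counts, 6091 E14.5 cells remained, and 852 of them passed an epithelial gate. The gate asked for at least 3 of the 9 genes *Epcam*, *Krt5*, *Krt14*, *Krt17*, *Dsp*, *Dsc3*, *Dsg2*, *Sfn* and *Trp63* and at most 1 of the 3 mesenchymal genes *Pdgfra*, *Prrx1* and *Twist1*. Within the gate, 175 cells (20.5%, 95% interval 17.9 to 23.4) had a *Krt15* or a *Meis2* count and are called *Krt15*/*Meis2* cells. The 677 gated cells with neither serve as the comparison. The rule does not separate dental from other oral epithelium.

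The tissue came from wild type NMRI embryos, from the lower incisor bud at the 2 later stages, E14.5 and E16.5, and from the whole mandible at E11.5. The labels list 4, 4 and 2 samples for E11.5, E14.5 and E16.5, each stage is 1 matrix of UMI counts (unique molecular identifiers, 1 per captured RNA molecule), and no barcode can be assigned to a sample. Each stage is therefore 1 sample, no p-value is given, and differences between stages and between samples cannot be told apart. Intervals are exact binomial for shares and exact Poisson for counts at the 95% level and cover counting error only. Levels are CPM, for which the UMIs of a gene in a group of cells were divided by all UMIs of that group and multiplied by 1000000. Ratios are log2 ratios of CPM after 10 CPM had been added on both sides.

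*Krt15* encodes a type I keratin of basal epithelial cells that also marks stem cells of the hair follicle bulge. *Meis2* encodes a homeodomain transcription factor of the TALE class, which is known for patterning of the face. At the cap stage the incisor epithelium holds an enamel knot, a signaling centre, and the cervical loops at its growing edges, while the oral epithelium next to the tooth stratifies and is covered by a flat outer layer, the periderm. *Krt15* and *Meis2* decided membership, so their own levels are only described.

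*Krt15* (ENSMUSG00000054146) lies on the minus strand of chromosome 11 at 100131758 to 100135928 of GRCm38, in the GENCODE vM21 annotation. *Meis2* (ENSMUSG00000027210) lies on the minus strand of chromosome 2 at 115863064 to 116065839. Both other genes proposed as markers of these cells were higher in them. The rule did not use these genes, but they were chosen with earlier results of these data known, so their levels are no test. *Igfbp5* (ENSMUSG00000026185, chromosome 1, 72857932 to 72874884, minus strand) encodes a secreted protein that binds insulin-like growth factors. It reached 776 CPM (734 to 819) in the *Krt15*/*Meis2* cells against 137 CPM (127 to 148) in the remaining epithelium, with a log2 ratio of 2.41. *Wnt4* (ENSMUSG00000036856, chromosome 4, 137277489 to 137299726, plus strand), a Wnt ligand, was at 147 CPM (129 to 166) against 57.2 CPM (50.6 to 64.3), a log2 ratio of 1.22. *Igfbp5* is not restricted to epithelium, since 2334 mesenchymal cells of the same matrix had 165 CPM, more than the other epithelial cells. *Wnt4* was at 5.89 CPM in the mesenchymal cells.

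The epithelial label was read from 12 markers that the gate did not use. All 12 were detected in the *Krt15*/*Meis2* cells, at a summed 639 CPM (601 to 678) against 509 CPM (489 to 529) in the other epithelial cells and 23.2 CPM in mesenchymal cells. Among markers of other cells, all 6 muscle markers were at 0, as were the neural crest and glial genes *Sox10* and *Foxd3* and the immune genes *Ptprc* and *Csf1r*. The 7 immune markers summed to 1.78 CPM (18.1 in the other epithelial cells), the 8 endothelial markers to 34.4 CPM (19.6) and the 6 erythroid markers to 4.75 CPM (14.6). The 6 glial and neural crest markers summed to 27.9 CPM (17.9). Of the 15 mesenchymal markers, 14 were detected, at a summed 331 CPM (304 to 359) against 315 CPM (300 to 332) in the other epithelial cells and 3458 CPM in mesenchymal cells. The part of these transcripts in the comparisons was not tested.

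A few cells carried counts of other kinds. Globin transcripts made up at least 1% of the UMIs in 4 *Krt15*/*Meis2* cells, with a range of 12.0 to 37.6%, and in 19 other cells. One *Krt15*/*Meis2* cell held 32 of their 58 endothelial marker UMIs, and the next highest cell held 3. Depth ranged from 1187 to 73783 UMIs with a median of 5772 in the *Krt15*/*Meis2* cells and from 1067 to 64820 with a median of 4761 in the others. The 8 *Krt15*/*Meis2* cells with over 30000 UMIs held 23.1% of all UMIs of the *Krt15*/*Meis2* cells, and levels of summed counts weigh such cells more. The 3 matrices shared 13 to 17 barcodes pairwise, and 1 *Krt15*/*Meis2* barcode was among them. Scrublet, a doublet caller, called none of the 6091 cells at its own threshold and so was not informative here.

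The promoters of *Igfbp5*, *Wnt4* and *Dapl1*, which were higher in the *Krt15*/*Meis2* cells, are shown because MEIS proteins bind a short core sequence, which can be looked for in them. They were read from the 250 bases before the RefSeq transcription start on GRCm38.p6, 5′ to 3′ on the strand of the gene. The RefSeq start can lie inside the GENCODE gene, so 19 bases of *Igfbp5* and 146 of *Wnt4* past the GENCODE start were left out. They lie at chr1:72874885-72875115 (minus strand) for *Igfbp5*, chr4:137277385-137277488 (plus strand) for *Wnt4* and chr2:59484403-59484652 (plus strand) for *Dapl1*. Capitals mark the MEIS core TGACAG and the TATA box TATAAA on either strand. *Krt15* and *Meis2* are named only, the latter because all 250 bases lie inside the GENCODE gene.
Igfbp5 promoter: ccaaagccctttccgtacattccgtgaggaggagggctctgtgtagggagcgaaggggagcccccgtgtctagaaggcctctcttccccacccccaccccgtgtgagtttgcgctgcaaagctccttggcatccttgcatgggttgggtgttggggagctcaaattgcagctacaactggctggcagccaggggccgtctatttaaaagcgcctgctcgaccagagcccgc
Wnt4 promoter: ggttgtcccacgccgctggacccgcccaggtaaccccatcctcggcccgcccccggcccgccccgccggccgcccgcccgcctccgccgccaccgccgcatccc
Dapl1 promoter: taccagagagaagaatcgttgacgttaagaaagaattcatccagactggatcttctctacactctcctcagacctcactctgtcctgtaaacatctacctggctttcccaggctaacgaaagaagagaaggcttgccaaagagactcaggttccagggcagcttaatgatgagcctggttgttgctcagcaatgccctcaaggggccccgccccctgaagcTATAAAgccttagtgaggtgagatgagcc
None of the stretches held TGACAG, and *Dapl1* held 1 TATAAA. In the *Wnt4* bases that were left out there was 1 TGACAG. The following shares are over the whole RefSeq windows, which may also reach into GENCODE genes. Of 32851 promoters of this length, 15.9% held TGACAG or its complement and 12.4% held TATAAA or its complement. Among the genes at least 2-fold higher in the *Krt15*/*Meis2* cells, 28 had a promoter in the table and 8 of them (28.6%) held TGACAG. Among those at least 2-fold lower, 2 of 19 (10.5%) held it, and among all genes ranked, 853 of 5615 (15.2%). TATAAA or its complement was held by 5 of the same 28 (17.9%), 2 of the 19 (10.5%) and 402 of the 5615 (7.16%). These shares were not tested. A match of letters is a description and not a binding site.

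Most *Krt15*/*Meis2* cells carried few copies of the transcripts that defined them. *Krt15* was counted in 85 of the 852 gated cells, with 346 UMIs in all, a median of 2 and a maximum of 33. *Meis2* was counted in 146 cells, with 593 UMIs, a median of 2 and a maximum of 46. A single UMI was all that was found in 34 of the *Krt15* cells and 70 of the *Meis2* cells. The 9 cells with at least 10 *Krt15* UMIs held 43.6% of that gene's counts, and the 15 cells with at least 10 *Meis2* UMIs held 49.4% of those of *Meis2*. In the plot of both transcripts per cell, all 15 cells with at least 10 *Meis2* UMIs also had *Krt15*.

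**Figure D1:**
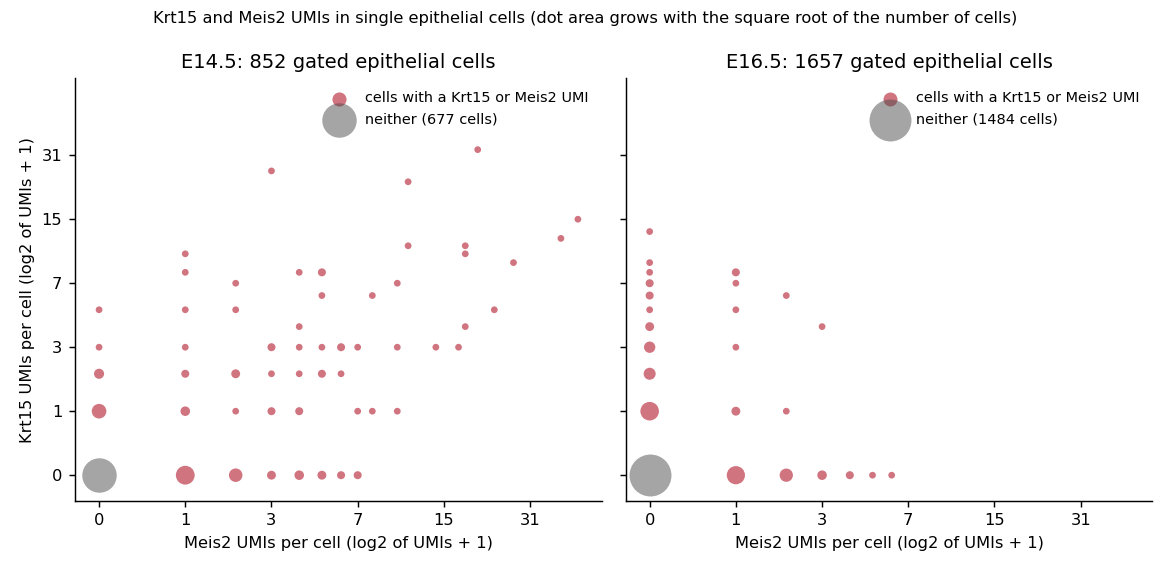
*Meis2* UMIs (x axis) against *Krt15* UMIs (y axis) in single gated epithelial cells at E14.5 and E16.5, on log2 axes of UMIs + 1; larger dots stand for more cells and the grey dot for cells with neither. At E14.5, 56 cells had both transcripts and counts reached 33 and 46, while at E16.5 there were 11 such cells and counts reached 13 and 6.

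At E14.5, *Krt15* was found mostly in cells that also had *Meis2*. Both were counted in 56 cells, *Krt15* alone in 29 and *Meis2* alone in 90. *Krt15* was found in 38.4% (30.4 to 46.8) of the cells with *Meis2* and in 4.11% (2.77 to 5.85) of the 706 cells without it. Outside the epithelium, at a median depth of 4115 UMIs, 0.514% (0.266 to 0.896) of mesenchymal cells had a *Krt15* UMI and 5.78% (4.87 to 6.81) had a *Meis2* UMI. Of 144 endothelial cells, none had a *Krt15* UMI and 1 had a *Meis2* UMI. In the gated epithelium, at a median depth of 5772 UMIs in the *Krt15*/*Meis2* cells and 4761 in the others, the shares were 9.98% for *Krt15* and 17.1% for *Meis2*. When every cell was thinned to 2000 UMIs and the shallower cells were left out, 106 of 787 cells (13.5%) still met the rule.

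Cells near the limits of the rule were as follows. Just inside the count limit stood 82 cells with a single UMI of either gene, 60 with *Meis2* and 22 with *Krt15*, at a median depth of 5156.5 UMIs, and just outside it stood the 677 cells with none. Just inside the gate, 15 of 128 cells with exactly 3 gate genes (11.7%) had a *Krt15* or *Meis2* UMI, and 14 of 170 cells with 1 gate gene fewer (8.24%) did.

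A gene was ranked when 10% or more of the cells of 1 group had a UMI of it and 50 or more UMIs were counted in both groups together, and *Krt15* and *Meis2* were left out. Of 7017 such genes, 34 (0.485%) were at least 2-fold higher in the *Krt15*/*Meis2* cells and 28 (0.399%) at least 2-fold lower. The median log2 ratio over all ranked genes was -0.07, and 39.7% of them were above 0. *Igfbp5* led the higher genes. It was followed by *Dapl1* (chromosome 2, 59484653 to 59505020), a gene of differentiating epithelial cells, at 162 CPM (143 to 182) against 31.9 (27.1 to 37.4), and by the metallothionein *Mt1* at 101 CPM (86.8 to 118) against 20.7 (16.8 to 25.1). The cell adhesion molecule *Alcam* was at 158 CPM (140 to 179) against 39.4 (34.0 to 45.5). The others of the 15 highest were *Klf5*, *Amot*, *Krt8*, *Lgals7*, *Anxa1*, *Arhgap29*, *Npnt*, *Cdc42ep3*, *Ptpn13*, *Ppargc1a* and *Anxa2*, with log2 ratios of 1.62 down to 1.28.

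The lower genes were led by *Etv1*, an ETS transcription factor induced by fibroblast growth factor (FGF) signaling, at 19.0 CPM (12.99 to 26.8) against 94.3 (85.8 to 103). *Cyp26a1*, which degrades retinoic acid, was at 5.34 CPM (2.44 to 10.1) against 33.4 (28.4 to 39.0). The long noncoding transcript *1500009L16Rik* (chromosome 10, 83722865 to 83762762) was at 188 CPM (168 to 210) against 548 (527 to 569), a log2 ratio of -1.49. The corepressor *Tle1* was at 19.6 CPM (13.5 to 27.5) against 68.4 (61.2 to 76.2). *Tmem100*, *Etv4*, *Fgfr1*, *Itga6*, *Ccne1*, *Hs3st3b1*, *Stap1*, *Mpped1* and the mitochondrial *mt-Nd6* were also among the 15 lowest, with ratios of -1.37 to -1.15.

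The adult globins *Hbb-bt* and *Hbb-bs* were among the 15 lowest too, at -1.35 and -1.19. The embryonic globin *Hbb-y*, named here after its values were seen, was among the 34 higher genes, at 724 CPM against 312 CPM. A single cell held 86.6% of its UMIs in the *Krt15*/*Meis2* cells. Without the cells with at least 1% globin UMIs, *Hbb-y* stood at 96.5 against 127 CPM and *Hbb-bs* at 123 against 187 CPM, and 31 genes were higher and 25 lower.

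**Figure D2:**
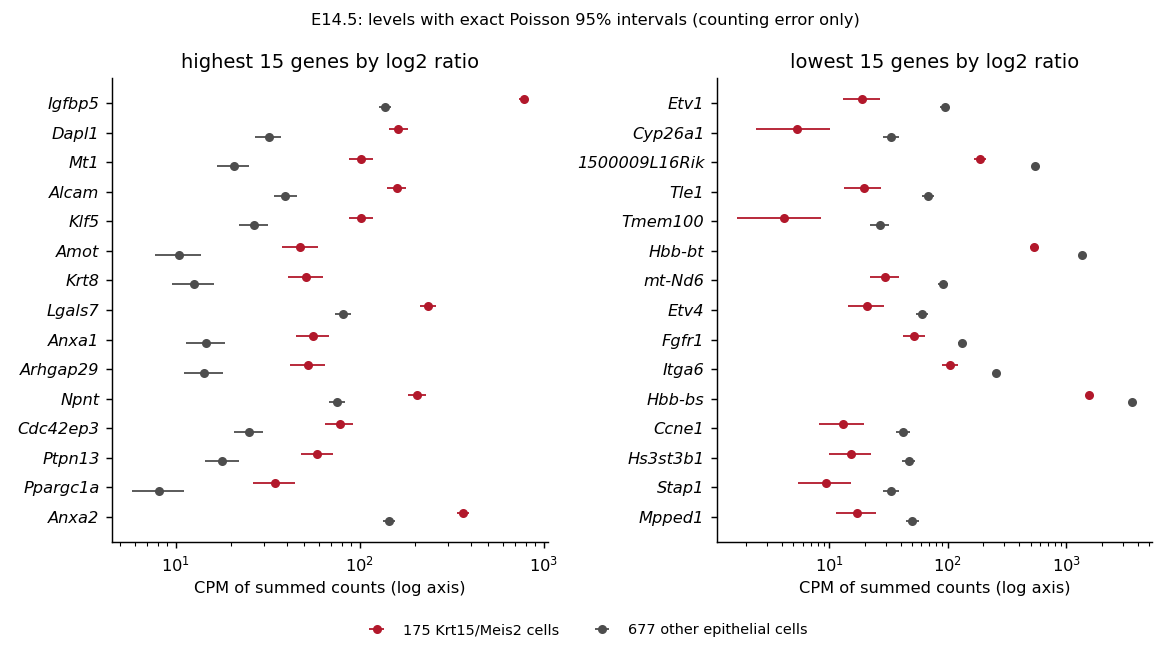
CPM of summed counts (x axis, log scale) of the 15 genes with the highest and the 15 with the lowest log2 ratio in 175 *Krt15*/*Meis2* cells (red) and 677 other epithelial cells (grey) at E14.5, with exact Poisson 95% intervals. The intervals of both groups do not overlap for any of the 30 genes, from *Igfbp5* at 776 against 137 CPM to *Mpped1* at 17.2 against 50.3 CPM. The genes were chosen by the ratio of these same levels, so this is no test.

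These sizes depended on the settings. With 1 CPM added in place of 10, 84 genes were higher and 105 lower, and with 50 CPM added, 9 and 4. Without cells of over 30000 UMIs, 49 genes were higher and 46 lower. Without the 1 *Krt15*/*Meis2* cell that held most UMIs of each gene, 8 of the 34 were below 2-fold, among them *Hbb-y*, *Tagln* and *Angpt1*. None of the 28 was lost, but leaving out that cell lowered their level further, so it is no test of the lower genes. When the *Krt15*/*Meis2* cells were called after thinning to 2000 UMIs, 37 were higher and 93 lower, and 14 and 6 of these were among the 34 and 28.

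At equal depth, with the cells still called on their full counts before thinning, the shares of cells with a UMI went the same way. With each cell thinned to 2000 UMIs, 165 *Krt15*/*Meis2* cells and 622 others remained, 10 and 55 having been left out. *Igfbp5* was then counted in 62.4% (54.6 to 69.8) against 21.1% (17.9 to 24.5) and *Dapl1* in 29.7% (22.8 to 37.3) against 6.11% (4.36 to 8.29), where the unthinned shares were 84.6% against 31.3% and 53.7% against 13.7%. *Wnt4* was in 19.4% (13.7 to 26.3) against 11.6% (9.17 to 14.4), and these intervals overlap. *Etv1* was in 2.42% (0.664 to 6.09) against 14.8% (12.1 to 17.8), and *1500009L16Rik* in 14.55% (9.55 to 20.9) against 43.6% (39.6 to 47.6).

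Of the suprabasal list, 8 genes were ranked. All 8 were above 0, where 39.7% of all ranked genes were, with a median log2 ratio of 0.48, and 2 were past 2-fold higher, where 0.485% of all were. These were *Klf5*, a Krüppel-like factor of proliferating epithelium, at 102 CPM (87.4 to 119) against 26.5 (22.1 to 31.5), and *Lgals7*, a galectin of stratified epithelia, at 236 CPM (213 to 260) against 80.9 (73.1 to 89.4). *Klf4* was at 69.4 CPM against 31.1. *Krtdap*, a marker of differentiated keratinocytes, was at 30.3 (22.5 to 39.8) against 29.4 (24.8 to 34.7), within counting error. Of 6 ranked periderm genes, 3 were past 2-fold higher, with a median of 0.96. Among them were the simple keratin *Krt8*, at 51.0 CPM (40.8 to 63.0) against 12.5 (9.55 to 16.1), and *Arhgap29*, which encodes a GTPase-activating protein, at 52.2 (41.9 to 64.3) against 14.2 (11.02 to 18.0). *Krt18*, the keratin that pairs with *Krt8*, went the other way, at 76.0 CPM (63.4 to 90.3) against 114 (104 to 124).

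Of 7 ranked keratins, 6 were above 0, where 39.7% of all ranked genes were, with a median of 0.47. Basal layer genes were split. Of 15 ranked, 9 were above 0 and the median was 0.21. *Col17a1*, a hemidesmosomal collagen, was at 52.8 CPM (42.4 to 65.0) against 16.48 (13.05 to 20.5), and the gate gene *Krt5*, a basal keratin, at 403 CPM (374 to 435) against 209 (197 to 223). *Dst*, which links keratin filaments to hemidesmosomes, was at 186 CPM against 108. *Itga6*, the integrin subunit of the same junction, was at 104 CPM (89.6 to 121) against 253 (239 to 267), and *Trp63*, the transcription factor of basal cells, at 129 against 130 CPM. Junction genes had a median of 0.24 over 17 ranked, and 1 was past 2-fold higher, where 0.485% of all ranked genes were. It was *Cldn7*, at 61.1 CPM (49.9 to 74.1) against 19.8 (16.03 to 24.2).

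Of 13 ranked dental epithelium genes, 4 were above 0, a share near that of all genes, and the median was -0.32. *Shh*, the hedgehog ligand of the enamel knot, was at 57.6 CPM (46.7 to 70.2) against 103 (94.2 to 113). The median of 6 ranked enamel knot genes was -0.33, and none was past 2-fold.

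FGF genes had a median of -0.48 over 10 ranked, with 2 above 0, where 39.7% of all ranked genes were. *Etv4*, a target of the pathway, was at 20.8 CPM (14.47 to 28.9) against 60.9 (54.1 to 68.3), its relative *Etv5* at 32.0 (24.1 to 41.8) against 66.3 (59.2 to 74.0), and the receptor *Fgfr1* at 52.2 (41.9 to 64.3) against 133 (123 to 144). The receptor *Fgfr2* was at 62.3 CPM (51.0 to 75.4) against 45.5 (39.6 to 51.9). The median of 6 ranked hedgehog genes was also -0.48, with 1 above 0 and none past 2-fold, and the receptor and target *Ptch1* was at 81.3 CPM (68.2 to 96.1) against 132 (122 to 143). BMP genes had a median of -0.24 over 12 ranked, with 2 above 0 and none past 2-fold. Ectodysplasin genes had a median of 0.02 over 4.

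Among Wnt ligands, 3 were ranked and all were above 0, where 39.7% of all ranked genes were. *Wnt6* was at 40.9 CPM (31.9 to 51.8) against 25.9 (21.5 to 30.8) and *Wnt5a* at 71.8 (59.6 to 85.8) against 67.2 (60.0 to 74.9), so of the 3 only *Wnt4* was past 2-fold. Wnt receptors, targets and inhibitors had a median of -0.09 over 19 ranked. *Tcf7l2*, a DNA-binding partner of beta-catenin, was at 189 CPM (169 to 211) against 102 (92.8 to 111), the target *Sp5* at 14.2 (9.12 to 21.2) against 39.8 (34.4 to 45.9) and the inhibitor *Sostdc1* at 306 (280 to 333) against 478 (459 to 498). In the IGF list, *Igfbp5* alone of 8 ranked genes was past 2-fold, where 0.485% of all ranked genes were past 2-fold higher. *Igfbp2*, another binding protein, was at 270 CPM (246 to 296) against 199 (186 to 212). Of 5 ranked Notch genes, 4 were above 0, with the receptor *Notch2* at 71.2 CPM (59.0 to 85.1) against 33.8 (28.8 to 39.4).

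None of the 17 ranked TALE and regional transcription factors was past 2-fold. *Meis1*, the close relative of *Meis2*, was at 55.2 CPM (44.5 to 67.6) against 53.8 (47.5 to 60.8). *Isl1*, a factor of the incisor region, was at 166 (147 to 186) against 258 (244 to 273). Of 9 ranked retinoic acid genes, *Cyp26a1* was past 2-fold lower, where 0.399% of all ranked genes were, and none was past 2-fold higher. The retinoic acid receptor gene *Rarb* was at 21.95 CPM (15.5 to 30.3) against 11.1 (8.28 to 14.46).

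The study asked about *Sox2*+ stem cells and the actomyosin network, and both sets were read here. *Sox2* was at 78.9 CPM (66.1 to 93.5) in the *Krt15*/*Meis2* cells against 39.6 (34.2 to 45.7), below 2-fold. After thinning, 10.3% (6.12 to 15.98) against 5.14% (3.55 to 7.19) had a *Sox2* UMI, and these intervals overlap. *Notch1* was at 46.3 CPM (36.6 to 57.8) against 33.0 (28.0 to 38.5) and *Bmi1* at 16.02 (10.6 to 23.3) against 17.3 (13.8 to 21.5). *Lgr5* was too sparse to be ranked, at 14.2 (9.12 to 21.2) against 12.5 (9.55 to 16.1). *Sfrp5* and *Prdm6* were not ranked either, with 3 and 0 UMIs in all *Krt15*/*Meis2* cells. No difference from the other epithelial cells is read from these 2 counts.

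Of 24 ranked actomyosin genes, 15 were above 0 and 1 was past 2-fold higher, where 39.7% and 0.485% of all ranked genes were. This was *Tagln*, which encodes the actin-binding transgelin, at 42.1 CPM (32.9 to 53.1) against 15.02 (11.8 to 18.9). One cell held 26.8% of the *Tagln* UMIs and 25.0% of the 28 *Acta2* UMIs, and without that cell the log2 ratio of *Tagln* was 0.71, below 2-fold, at 30.9 CPM. *Acta2*, too sparse to be ranked, was at 12.5 CPM without it, against 3.76 CPM in the other epithelial cells. The tropomyosin gene *Tpm1* was at 714 CPM (674 to 755) against 356 (340 to 374). Of the myosin heavy chains, *Myh10* was lower, at 119 CPM (103 to 136) against 160 (149 to 172). *Myh9* was at 107 CPM (91.8 to 124) against 84.9 (76.9 to 93.6), and these intervals overlap.

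Cell cycle transcripts were lower. All 10 cell cycle genes and all 15 genes of S phase were below 0, none past 2-fold, with medians of -0.23 and -0.45. Of all ranked genes, 39.7% were above 0. *Top2a* was at 395 CPM (366 to 426) against 603 (581.5 to 626), and *Mki67* at 172 (153 to 193) against 261 (247 to 276). Immediate early and heat shock genes, which tissue dissociation can induce, had a median of 0.42 over 19 ranked with 14 above 0. *Fos* was at 342 CPM (315 to 371) against 187 (175 to 200), and the heat shock gene *Hspa1b* at 92.0 (78.1 to 108) against 143 (132 to 154). The part of dissociation in these levels was not tested.

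The *Krt15*/*Meis2* cells were not uniform. They were divided into 56 cells with both transcripts, 29 with *Krt15* only, 30 with at least 2 *Meis2* UMIs and no *Krt15*, and 60 with a single *Meis2* UMI and no *Krt15*. The median depths were 7220.5, 4316, 7013.5 and 5535.5 UMIs. The 60 cells with a single *Meis2* UMI, 34.3% of all, were nearest to the cells with neither transcript. Their *1500009L16Rik* level was 406 CPM (358 to 459) and their *Etv4* level 49.96 CPM (33.9 to 70.9), whose interval overlaps that of the cells with neither. Of the higher genes, *Klf5* was at 24.2 CPM (13.5 to 39.9) in them, against 26.5 in the cells with neither, and *Wnt4* at 75.7 CPM (55.7 to 101). *Igfbp5*, at 469 CPM (417 to 526), was still above the cells with neither.

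The 56 cells with both transcripts stood farthest from the rest. *Klf5* was at 204 CPM (170 to 244) in them, against 77.9 (38.9 to 139) in cells with *Krt15* only and 67.3 (41.6 to 103) in cells with at least 2 *Meis2* UMIs alone. *Sox2* was at 142 CPM (114 to 176) and in the other divisions at 28.3 to 45.1 CPM, and *Mt1* was at 222 CPM (187 to 263) against 27.4 to 56.6. *Dapl1* was at 276 CPM (236 to 321), an interval that overlaps that of the *Krt15* only cells at 198 (132 to 286). *Igfbp5* was as high in cells with at least 2 *Meis2* UMIs alone, 942 CPM (837 to 1056), as in cells with both, 1029 CPM (950 to 1113), within counting error. Mesenchymal markers were lowest in the cells with both, at a summed 136 CPM against 467 in the *Krt15* only and 437 in the *Meis2* only cells.

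Some sparse genes, chosen after their values were seen, had most of their *Krt15*/*Meis2* UMIs in the cells with both. *Osr1*, a zinc finger transcription factor, had 21 of its 26 UMIs there, at 34.4 CPM (21.3 to 52.5) against 1.67 (0.721 to 3.29) in the cells with neither. *Foxe1*, a forkhead factor of oral and pharyngeal epithelium, had 17 of 21 UMIs there, at 27.8 CPM (16.2 to 44.5) against 1.67 (0.721 to 3.29). *Krt19* was at 47.4 CPM (31.8 to 68.1) against 1.25 (0.459 to 2.72). *Krt6a*, a keratin of periderm and stressed epithelium, was at 62.2 CPM (44.0 to 85.3) against 10.6 (7.92 to 13.99), but the cells with neither held 51 UMIs of it, and 32.5% of its UMIs in *Krt15*/*Meis2* cells came from 1 cell.

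The levels also differed with the summed *Krt15* and *Meis2* UMIs of a cell. *Dapl1* was at 69.9 CPM in the 82 cells with 1 UMI, 137 in the 42 with 2 to 4, 283 in the 28 with 5 to 9 and 292 in the 23 with 10 or more, and *Klf5* at 28.8, 64.2, 152 and 245 CPM. The cells of the last bin were also deeper, with a median of 14136 UMIs.

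*Etv4* and *Shh* transcripts were nearly absent from the cells with *Krt15*. *Etv4* had 0 UMIs in the cells with both (0 to 6.03 CPM) and 0 in the *Krt15* only cells (0 to 26.1 CPM). *Shh* had 2 UMIs in the cells with both, 3.27 CPM (0.396 to 11.8), and 0 in the *Krt15* only cells. In the cells with at least 2 *Meis2* UMIs alone *Shh* was at 221 CPM, but all 69 UMIs came from 3 cells and 35 of them from 1, without which the level was 128 CPM. The *Tagln* level of the *Krt15* only cells, 149 CPM, also rested on 1 cell with 19 of 21 UMIs and was 14.7 CPM without it.

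**Figure D3:**
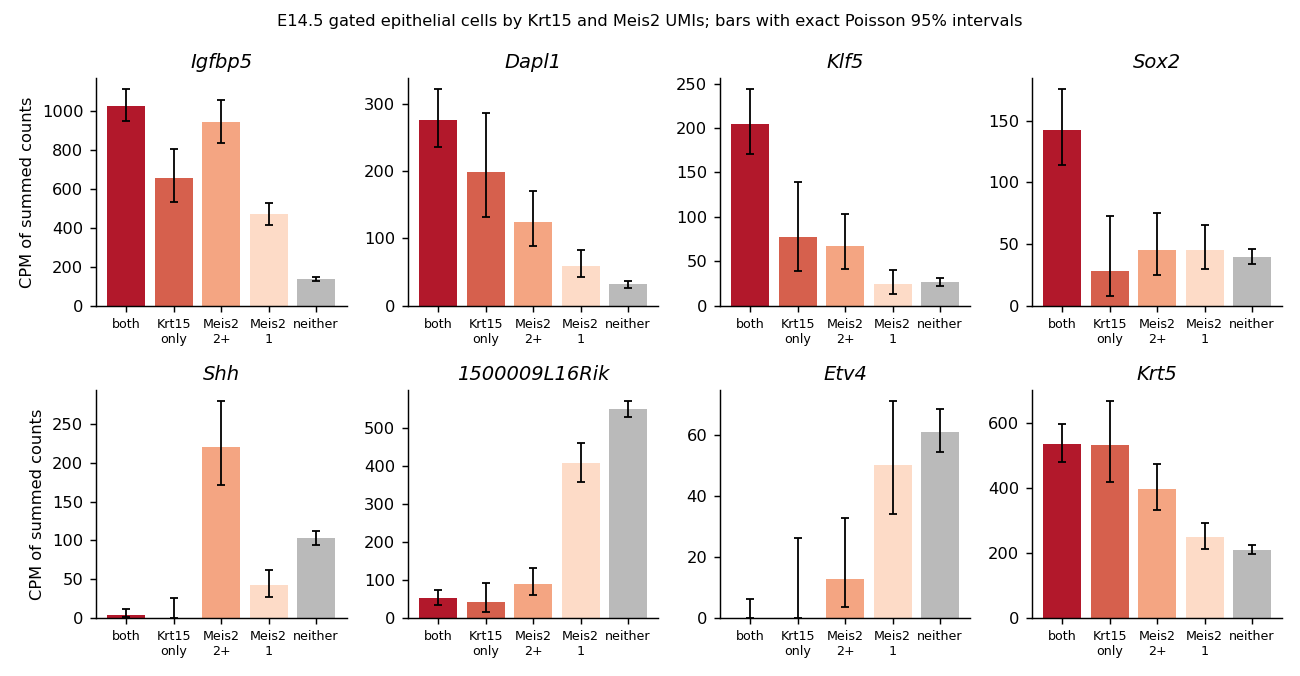
CPM of summed counts (y axes, from 0) of 8 genes in E14.5 epithelial cells with both transcripts, *Krt15* only, at least 2 *Meis2* UMIs only, 1 *Meis2* UMI only, and neither, with exact Poisson 95% intervals. *Klf5* and *Sox2* are highest in the cells with both, at 204 and 142 CPM, while *Etv4* is at 0 in both groups with *Krt15* and at 49.96 and 60.9 CPM in the last 2 groups.

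Leaving out the 60 cells with a single *Meis2* UMI and no *Krt15* gave 69 genes higher and 96 lower past 2-fold, which included all 34 of the higher and 23 of the 28 lower genes.

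The gated cells were also clustered without *Krt15* and *Meis2* among the variable genes. Of 4 clusters, 1 held 142 of the 175 *Krt15*/*Meis2* cells (81.1%), including 52 of the 56 with both transcripts. They made up 46.1% (40.4 to 51.8) of its 308 cells and 5.23 to 6.52% of the cells of the other 3 clusters. Of all *Krt15* UMIs of the gated cells 334 of 346 lay in this cluster, and of all *Meis2* UMIs 542 of 593. Its leading genes were *Igfbp5*, *Dapl1*, *Hbb-y*, *Krtdap* and *Angpt1*, and those of the other clusters were *1500009L16Rik* and *Crabp1*, *mt-Nd6* and *Ryr2*, and *Shh* and *Wif1*. The clusters were made from these same genes, so the gene levels are no test.

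**Figure D4:**
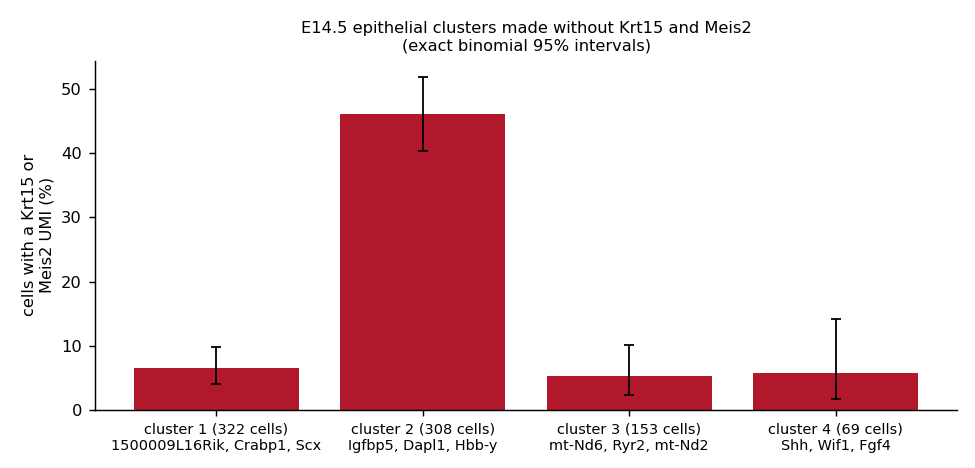
Share of cells with a *Krt15* or *Meis2* UMI (y axis, %) in 4 clusters of E14.5 epithelial cells made without these genes, with exact binomial 95% intervals and the 3 leading genes of each cluster under its bar. Cluster 2 stands at 46.1% of 308 cells, and clusters 1, 3 and 4 at 5.23 to 6.52%.

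The 33 *Krt15*/*Meis2* cells outside that cluster differed from the 142 inside it. *Igfbp5* was at 129 CPM (100 to 163) outside and 1078 CPM (1019 to 1140) inside, and *1500009L16Rik* at 479 CPM (422 to 541) and 52.2 CPM (39.9 to 67.2). The 166 cells of the cluster with neither transcript had intermediate levels, with *Igfbp5* at 450 CPM (408 to 496), *Dapl1* at 95.7 (76.8 to 118) against 226 (199 to 255) in the *Krt15*/*Meis2* cells beside them, and *1500009L16Rik* at 104 (84.6 to 128). *Sox2* was at 39.2 CPM (27.4 to 54.2) in these 166 cells, near the 39.7 CPM (33.7 to 46.5) of cells with neither transcript in the other clusters, and at 99.3 CPM (81.9 to 119) in the 142. The 166 cells were shallower, with a median of 3877.5 UMIs against 5342.5. At a finer clustering, with resolution 0.8 and 6 clusters, 111 of the 175 lay in 1 cluster of 208 cells, 53.4% of it. A further 31 lay in a cluster of 143 cells led by *Shh*, *S100a6* and *Wif1*, where they made up 21.7% (15.2 to 29.3). They included 12 of the 29 *Krt15* only cells, and this cluster held 122 of the 346 *Krt15* UMIs. It was mixed, with *Krtdap* and *Hspb1* also among its leading genes. At resolution 0.4 the cluster led by *Shh* and *Wif1* had only 69 cells, with 4 *Krt15*/*Meis2* cells and 1 *Krt15* UMI. At a resolution of 0.2 the clusters did not separate the *Krt15*/*Meis2* cells, with 170 in the larger of 2.

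E16.5 gave a matrix that the choice of the E14.5 cells did not use. The same gate kept 1657 cells there, of which 173 (10.4%, 9.01 to 12.0) had a *Krt15* or *Meis2* UMI, at a median depth of 9328 UMIs against 6946 in the other 1484. *Krt15* and *Meis2* were seldom found together, in 11 cells, with *Krt15* only in 86 and *Meis2* only in 76. *Krt15* was counted in 12.6% (6.48 to 21.5) of the cells with *Meis2* and in 5.48% (4.404 to 6.72) of those without. The levels in these cells were 70.4 CPM (61.4 to 80.4) of *Krt15* and 41.5 CPM (34.6 to 49.3) of *Meis2*, where they were 205 (184 to 228) and 352 (324 to 381) at E14.5. At E11.5, in whole mandibles, 6 cells passed the gate, and all 6 had a *Meis2* UMI.

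Much of the E14.5 profile was found again by direction at E16.5, less of it by size. Of the 34 higher genes, 32 were ranked at E16.5 and 29 of these were above 0 there, where 63.8% of all ranked genes were, with a median log2 ratio of 0.56. Past 2-fold were 7 of the 32 (21.9%), against 0.962% of all 9357 genes ranked at E16.5. They were *Amot* and *Ppargc1a*, and, named after their values were seen, *Angpt1*, *Gpc3*, *Sorbs2*, *Nrxn3* and *Lgi2*. In the other direction, 62 of the 90 genes higher at E16.5 were ranked at E14.5, and the same 7 were 11.3% of them. *Ppargc1a*, a coactivator of mitochondrial genes, was at 101 against 18.6 CPM at E16.5 (34.4 against 8.14 at E14.5), and *Angpt1*, a ligand of the endothelial receptor TIE2, at 128 against 16.9 CPM (39.2 against 10.2). Without the 1 cell that held most UMIs of the gene, 3 of the 7 were below 2-fold at E14.5, *Angpt1* at 0.96, *Nrxn3* at 0.89 and *Lgi2* at 0.99, and *Sorbs2* was below it at E16.5, at 0.91. For *Angpt1* that cell held 25.8% of the E14.5 UMIs.

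Of the 28 lower genes, 23 were ranked at E16.5 and 19 of them were below 0, with a median of -0.41. Of all genes ranked there, 63.8% were above 0. Past 2-fold lower were 2 of the 23, the globins *Hbb-bt* and *Hbb-bs*, against 0.0534% of all genes. Both rested on a few cells. At E14.5, without the cells with at least 1% globin UMIs, *Hbb-bt* stood at 49.4 against 67.5 CPM and *Hbb-bs* at 123 against 187 CPM, below 2-fold. At E16.5 a single cell held 69.2% of the *Hbb-bt* and 65.2% of the *Hbb-bs* UMIs in the *Krt15*/*Meis2* cells. *Etv1* and *1500009L16Rik* came close, at -0.98 and -0.99.

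Of the label genes, *Igfbp5* was at 1119 CPM (1082 to 1157) against 631 (618 to 643) at E16.5, a log2 ratio of 0.82, and *Wnt4* at 314 (295 to 334) against 191 (184 to 198), a ratio of 0.69. Both remained higher in the *Krt15*/*Meis2* cells and below 2-fold, and the other epithelial cells had more of both than at E14.5. *Klf5* and *Krt8*, past 2-fold at E14.5, were at -0.14 and -0.12, with overlapping intervals. Suprabasal genes had a median of 0.07 and periderm genes of -0.12 at E16.5, where they had 0.48 and 0.96 at E14.5. Basal layer genes had a median of 0.59, and 0.21 at E14.5, with all 15 above 0 and 3 past 2-fold. Of all genes ranked at E16.5, 63.8% were above 0 and 0.962% past 2-fold higher. *Notch2* was at a ratio of 1.64 at E16.5 and 0.89 at E14.5. Cell cycle genes were again all below 0, with a median of -0.58. The inhibitor *Sostdc1* and the hedgehog receptor *Ptch1* were below 0 at E14.5, at -0.63 and -0.64, and past 2-fold higher at E16.5, at 1.09 and 1.13. These differences between stages were not tested.

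**Figure D5:**
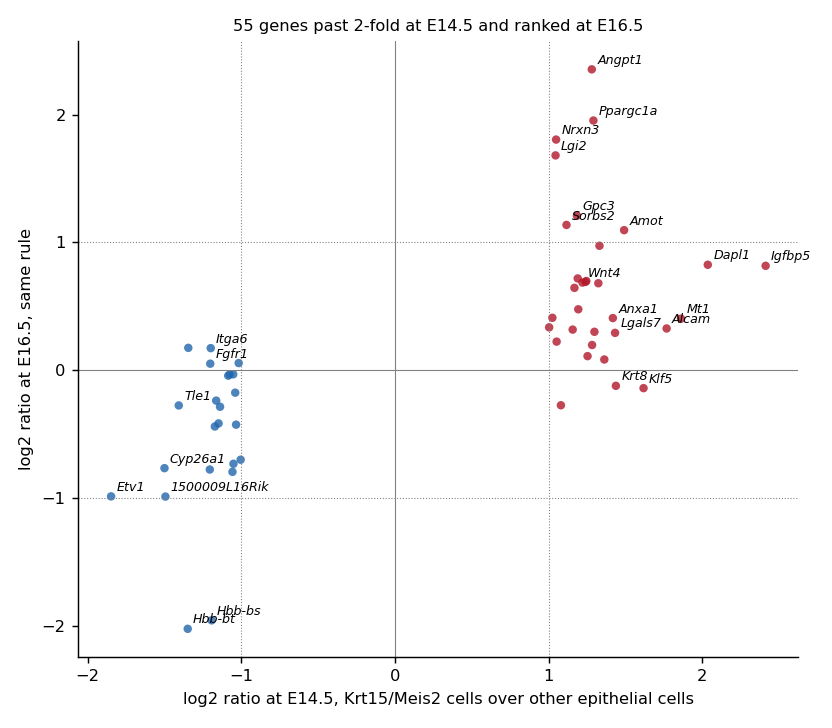
Log2 ratios of *Krt15*/*Meis2* cells over other epithelial cells at E14.5 (x axis) and E16.5 (y axis) for the 55 genes past 2-fold at E14.5 and ranked at both stages; dotted lines mark 2-fold. Of the 32 higher genes (red), 29 lie above 0 at E16.5 and 7 above 2-fold; of the 23 lower genes (blue), 19 lie below 0 and 2 below 2-fold.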

How the data were processed

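Single-cell 3′ libraries (Chromium v3) of the 3 stages were aligned to mm10 with Cell Ranger 4.0.0 by the authors, who deposited 1 matrix of raw UMI counts per stage, not normalized. The matrices hold 32285 genes and 8708, 8192 and 5719 barcodes, of which 6573, 6091 and 4511 passed the study's filter on genes and mitochondrial counts. From these counts, CPM of summed counts, log2 ratios and exact intervals were computed in Python 3.11.15 with scipy 1.17.1, and the ranking was tested on simulated data. Gated E14.5 cells were normalized by SCTransform (2000 variable genes) and clustered (20 principal components, Leiden resolution 0.4) in Seurat 5.3.0, and doublets were scored by Scrublet in scanpy 1.11.5. Doublets were kept. Genes named are the 4 label markers, the 15 highest and 15 lowest ratios, up to 3 at each end of each gene list, and all ranked genes of the stem cell and actomyosin lists. Other genes are marked as chosen after their values were seen. Members and lists were chosen with earlier results of these data known. Promoters are from RefSeq. Alternatives changed the cell filter, gate, member rule, depth, CPM added, weighting of cells and filter on genes. Results for a few genes are not reported here.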

Additional observations from a re-analysis of the deposited data

Results flagged for a closer look

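For 5 of the 15 highest and 15 lowest genes at E14.5, the log2 ratio of *Krt15*/*Meis2* cells over other epithelial cells had the other sign at E16.5, and this difference was not tested. The E16.5 ratios were -0.14 for *Klf5* (1.62 at E14.5) and -0.12 for *Krt8* (1.44), and 0.18 for *mt-Nd6* (-1.34), 0.05 for *Fgfr1* (-1.20) and 0.17 for the integrin gene *Itga6* (-1.20). At E16.5 the intervals of both groups overlap for *Klf5*, *Krt8*, *mt-Nd6* and *Fgfr1*, so their sign there is within counting error. Those of *Itga6* do not overlap. For *Klf5* the *Krt15*/*Meis2* cells were at 102 CPM at E14.5 and 43.7 CPM at E16.5, and the other epithelial cells at 26.5 and 49.1 CPM.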

How the results depend on the processing

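The share of *Krt15*/*Meis2* cells, 20.5%, was 10.9% with at least 2 UMIs of both genes together, 9.98% with *Krt15* alone, 17.1% with *Meis2* alone, 13.5% after thinning to 2000 UMIs, and 14.52% without the cells with 1 *Meis2* UMI and no *Krt15*. The 34 genes at least 2-fold higher became 66, 74 and 69 under the first, second and last of these rules, 84 with 1 CPM added and 9 with 50 CPM added. The 28 lower genes became 94, 165 and 96 under the same rules, 93 after thinning, 105 and 4 with 1 and 50 CPM added, 73 when each cell weighed equally, and 46 without cells of over 30000 UMIs. The cause was not tested. Other gates, cell filters and gene filters, and leaving out cells by Scrublet score, globin or endothelial content, kept all 3 values within counting error or 1.5 times. Leaving out the *Krt15*/*Meis2* cell with most UMIs of each gene kept 26 of the 34. It kept 28 of the 28 lower genes, for which it is no test, since it lowered their level further. This setting, those that leave out globin, endothelial, deep or single-*Meis2* cells and the finer and coarser clusterings were chosen after seeing the data.

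Over 162 named genes and 17 alternatives, 2439 of 2754 ratios stayed within counting error of the reported value and 314 did not. The remaining ratio, of *Hbb-bs*, changed sign, to 0.15 with *Krt15* alone. Changes of sign were counted only for genes past 2-fold in the reported setting. *Igfbp5* stayed between 2.09 and 2.71. Counts limited the cells with *Krt15* only most, at 141256 UMIs in 29 cells. No paired analysis was possible because no barcode can be assigned to a sample.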
